A study of Mus musculus with 18 samples.

Results

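Splicing factors and heterogeneous nuclear ribonucleoproteins (hnRNPs) were compared between endothelial cells and the remaining cells of the developing mouse retina. The members were all genes of the Srsf, Hnrnp, Sf3a, Sf3b, Prpf, Snrp, Rbfox, Celf, Elavl and Ptbp families, chosen by symbol alone, that had a probe set annotated to exactly 1 gene. Snrpn was left out. This gave 68 genes of 15964 measured, with 177 probe sets between them, and each gene was represented by its brightest probe set. Of the 68, 55 were general splicing factors, 8 were neural splicing regulators and 5 were broadly expressed relatives of the neural regulators (Rbfox2, Celf1, Celf2, Elavl1 and Ptbp3). Members such as Ptbp1, Celf3 and Celf6 without a probe set of their own were not analysed here.

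GFP-positive cells, labelled endothelial, and GFP-negative cells, the non-endothelial control, were sorted from dissociated, pooled retinas of FVB/N mice at postnatal day 8. All mice were homozygous for a Tie2-GFP transgene, so both populations carried it and were separated by GFP, which the Tie2 promoter drives in endothelium and can drive in some blood-lineage cells. Amplified RNA of each population was hybridised to 3 arrays of each of the Affymetrix chips A, B and C, which gave 18 arrays. Nothing in the labels assigns the 3 arrays to different mice or sorts, and p-values therefore reflect array-to-array spread that may be technical.

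The spliceosome removes introns from pre-mRNA. The small nuclear ribonucleoproteins carry a ring of Sm proteins (Snrp genes), the SF3 complexes hold the U2 particle at the branch site, and the PRPF proteins build and remodel the catalytic machine. SR proteins (Srsf genes) mostly promote the use of exons to which they bind, and hnRNPs often oppose them. Rbfox, CELF, ELAVL and PTB proteins set tissue-specific splicing and mRNA stability on top of this machinery, and several of them are best known from neurons.

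The labels of the populations were checked with marker genes. Of 12 endothelial markers 9 were higher in GFP-positive cells and none lower, while Kdr, Pecam1 and Egfl7 did not pass. Their summed intensity was 14059.9 to 17069 on GFP-positive against 2074 to 3040 on GFP-negative arrays. Most of the GFP-negative sum came from Kdr, at 2796, 2128 and 1811 there against 1986, 2447 and 2272 on GFP-positive arrays. Of 12 measured markers of retinal neurons 9 were lower and 1, Stmn2, was higher, and their sum was 628 to 1050.1 on GFP-positive against 7323 to 7746 on GFP-negative arrays. Müller glia and astrocyte markers were lower for 4 of 6, with sums of 330.4 to 1219.5 on GFP-positive against 2560.2 to 4199 on GFP-negative arrays. The highest GFP-positive sum was that of replicate 3, most of it from Glul (986, against 136 and 156 on replicates 1 and 2). No pericyte, microglia or blood marker passed in either direction. GFP-positive replicate 3 stood apart. Its Spearman rank correlation with the other GFP-positive arrays was 0.911 to 0.929 across probe sets, whereas all other pairs within a population reached 0.960 to 0.987, and its microglia and blood marker sum was 1237 against 332 and 334 on the other GFP-positive arrays, most of it from Csf1r.

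In GFP-positive cells 11 of the 68 members were lower and 2 were higher than in GFP-negative cells at a Benjamini-Hochberg adjusted p under 0.05 (limma). Among all 15964 genes, measured the same way, 11.9% were lower and 9.83% higher, so the share of members that fell, 16.2%, lay near the background and the share that rose, 2.94%, below it. The median log2 difference of the members (GFP-positive minus GFP-negative, after adding 16 to each intensity) was -0.21, against 0.04 over all genes. Members below 0 numbered 48 and those above 0 numbered 20, beside 7039 and 8925 of all genes. Members were bright genes, with a median rank at the 81.0th percentile of intensity, and among all genes of mean intensity 50 or more 16.8% were lower and 12.6% higher, beside 11 and 2 of 61 members. Without GFP-positive replicate 3, 15 members were lower and 6 higher, against 17.1% and 14.9% of all genes. In bulk samples such as these, fewer cells of a type and less RNA per cell cannot be told apart.

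The general factors and the neural regulators differed little in these summaries. Of the 55 general factors 8 were lower and 1 was higher, with a median of -0.20. Of the 8 neural regulators 1 was lower and none was higher, with a median of -0.16. The 5 broad relatives had 2 lower and 1 higher and a median of -0.66. Over all genes 11.9% were lower and 9.83% higher. None of these differences between lists was tested. The neural regulators were also dim, with a median rank at the 48.5th percentile and 4 of 8 at a mean intensity of 50 or more, against 52 of 55 general factors, so their values lie closer to background. Each gene was ranked among the genes of its own chip, and the medians pool ranks from chips that were tabulated separately.

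**Figure D1:**
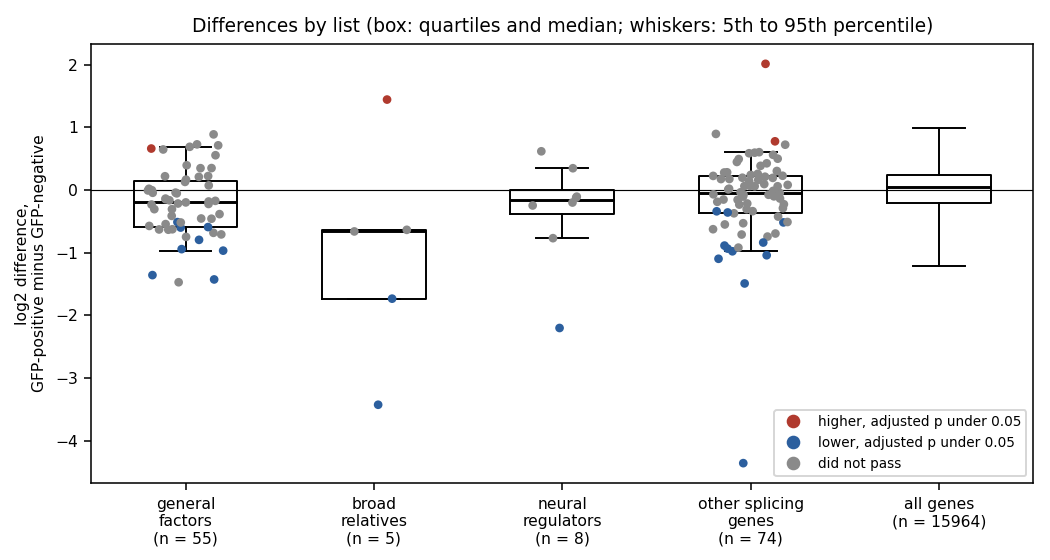
Log2 difference (GFP-positive minus GFP-negative, after adding 16 to each intensity) of each gene in the 55 general factors, 5 broad relatives, 8 neural regulators and 74 other splicing genes, with all 15964 genes as a box. Boxes show quartiles and the median, whiskers the outermost genes within the 5th to 95th percentile, and colours mark genes with an adjusted p under 0.05. The medians of general factors (-0.20) and neural regulators (-0.16) lie close together, and the lowest member is Celf2 at -3.43, a broad relative.

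Promoters are shown for the general factor that fell most, the general factor that rose, and the regulator with the largest difference. Each window runs from 250 bases before to 50 after a RefSeq transcription start (GRCm38.p6), 5′ to 3′ on the gene's strand. Capitals mark any match, on either strand, of GGGCGG (GC box), CCGGAAG (a core bound by ETS factors), CCAAT and TATAAA. Hnrnph3 lies at chr10:63023800-63024099, Snrpe at chr1:133610231-133610530 and the most upstream of 5 listed Celf2 starts at chr2:7396149-7396448, all on the minus strand.
Hnrnph3: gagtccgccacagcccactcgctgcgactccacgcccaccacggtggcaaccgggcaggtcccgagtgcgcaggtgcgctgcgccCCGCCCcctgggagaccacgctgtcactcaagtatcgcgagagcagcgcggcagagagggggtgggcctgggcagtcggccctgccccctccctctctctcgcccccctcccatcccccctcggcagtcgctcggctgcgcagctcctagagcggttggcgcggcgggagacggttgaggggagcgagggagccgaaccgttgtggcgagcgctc
Snrpe: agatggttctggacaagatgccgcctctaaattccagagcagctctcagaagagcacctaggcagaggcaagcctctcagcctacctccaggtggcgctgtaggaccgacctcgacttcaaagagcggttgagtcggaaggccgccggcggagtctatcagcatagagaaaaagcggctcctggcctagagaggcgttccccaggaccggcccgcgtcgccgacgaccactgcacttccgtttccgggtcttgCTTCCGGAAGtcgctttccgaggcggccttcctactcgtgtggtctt
Celf2: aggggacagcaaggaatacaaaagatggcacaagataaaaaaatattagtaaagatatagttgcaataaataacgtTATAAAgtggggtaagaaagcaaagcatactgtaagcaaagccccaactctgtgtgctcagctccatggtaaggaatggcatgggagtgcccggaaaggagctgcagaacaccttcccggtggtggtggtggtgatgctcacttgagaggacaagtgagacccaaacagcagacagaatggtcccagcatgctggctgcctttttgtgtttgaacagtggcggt

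The Hnrnph3 window was 73.0% G and C and held 1 GC box. That of Snrpe was 60.3% G and C, with a single palindromic stretch that matched CCGGAAG on both strands. The Celf2 window was 46.7% G and C, with 4 CpG dinucleotides against 32 in Hnrnph3 and 24 in Snrpe, and held 1 TATAAA. Promoters of 59 members were in the table, and for genes with several starts the most upstream was used. CCGGAAG was in 17 of 49 general factor windows, or 34.7%, in none of 7 neural regulator windows and in 9.14% of 27025 genes. Those 27025 genes include ones not measured here, and their windows held a median of 7 CpG against 25 in general factors. Their median G and C was 52.7% against 60.0%. GGGCGG was in 65.3% of general factor windows and 35.9% of all, CCAAT in 51.0% and 38.0%, and TATAAA in 10.2% and 14.2%. Among the 10 members that fell with a listed promoter, CCGGAAG was in 1 and GGGCGG in 7. Among the 48 that did not pass, CCGGAAG was in 15 and GGGCGG in 29. These matches are descriptions of the windows and not binding sites.

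Among the SR proteins 3 of 9 measured genes fell and none rose, beside 11.9% and 9.83% of all genes, with a median difference of -0.17. Srsf10, which represses splicing when dephosphorylated, read 91.8, 69.8 and 74.2 intensity units in GFP-positive cells against 208, 119 and 182 in GFP-negative cells. Every GFP-positive array lay below every GFP-negative one, and the log2 difference was -0.95 (SE 0.21, adjusted p = 0.0266, limma, n = 3 arrays each as for all genes here). Both Srsf10 probe sets fell.

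Srsf6, which binds exonic enhancers, read 657, 515 and 580.3 in GFP-positive cells against 967, 794 and 918 in GFP-negative cells, a difference of -0.60 (SE 0.12, adjusted p = 0.0204, limma). The populations did not overlap. It was the member of this family with most support from other probes, as 3 of its 4 probe sets fell, those on chip B with log2 differences of -1.05 and -1.32, and the other, a dim one on chip C, did not pass. Srsf4, another enhancer-binding SR protein, read 73.1, 88.0 and 110.4 in GFP-positive cells against 144, 127 and 160.1 in GFP-negative cells (-0.59, SE 0.15, adjusted p = 0.0448, limma), with both probe sets lower. The calls of Srsf10, Srsf6 and Srsf4 each ended when single arrays were left out, at adjusted p up to 0.106, 0.0855 and 0.156, and that of Srsf4 was lost in 11 of 18 alternatives.

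The brightest SR proteins did not pass. Srsf2, which acts both in constitutive splicing and on exonic enhancers, was 1522 ± 347 in GFP-positive cells against 1681 ± 78.1 in GFP-negative cells (SD, n = 3 each), a difference of -0.17 (SE 0.17). Srsf5 was 1501 ± 189 against 1503 ± 137, or -0.01 (SE 0.12), and its GFP-positive and GFP-negative arrays overlapped.

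Of the hnRNPs 4 of 18 fell and none rose, beside 11.9% and 9.83% of all genes, with a median of -0.27. Of the 18 differences 16 lay below 0, beside 7039 of 15964 over all genes. Hnrnph3 and Hnrnph1 encode related proteins that bind G-rich RNA. Hnrnph3 read 169.6, 224 and 141 in GFP-positive cells against 494, 395 and 639 in GFP-negative cells. The populations did not overlap, and the log2 difference of -1.43 (SE 0.22, adjusted p = 0.00832, limma) passed. The call held in all 18 alternatives. Hnrnph1 read 957, 641 and 824 in GFP-positive cells against 1760.1, 1308 and 1702 in GFP-negative cells (-0.97, SE 0.18, adjusted p = 0.0166, limma), again without overlap, and this call ended without GFP-negative replicate 1 or 3 (adjusted p up to 0.0735). The other, dim Hnrnph1 probe set did not differ (0.01).

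Hnrnpul1, whose call ended under quantile normalization (adjusted p = 0.0694), limma-trend (adjusted p = 0.0714) and a 2-fold minimum, is an RNA-binding protein with a role in the DNA damage response. It read 297, 317 and 320.0 in GFP-positive cells against 418, 469 and 468 in GFP-negative cells (-0.51, SE 0.09, adjusted p = 0.00917, limma). The other, dim Hnrnpul1 probe set did not pass (-0.03). Hnrnpk, which binds C-rich sequence, read 278, 215 and 158 in GFP-positive cells against 416, 326 and 404 in GFP-negative cells. Its difference of -0.80 (SE 0.21, adjusted p = 0.0486, limma) was near the threshold and was lost in 11 of 18 alternatives. Both genes had no overlap between the populations.

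The abundant Hnrnpa2b1, a carrier and splicing repressor, was lower on every GFP-positive array, at 1853, 1618 and 1714 against 2139, 1946 and 1979 on GFP-negative arrays. That difference was small (-0.22, SE 0.08) and did not pass (adjusted p = 0.126, limma). Under quantile normalization it was -0.49 and passed (adjusted p = 0.0118), and in the other 17 alternatives it did not pass (adjusted p from 0.0804 to 0.337). Hnrnpm was split by 1 array: its brightest probe set read 3167, 2951 and 641 in GFP-positive cells against 1793, 1407 and 2065 in GFP-negative cells (0.07, adjusted p = 0.962, limma), and without GFP-positive replicate 3 it was 0.81 (adjusted p = 0.0175). Another Hnrnpm probe set on chip A, bright as well, did not pass (-0.20). A lower probe set beside a brightest one that did not pass was found for 5 members, Hnrnpd, Hnrnpr, Hnrnpul2, Sf3b1 and Elavl4, listed after their values were seen.

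**Figure D2:**
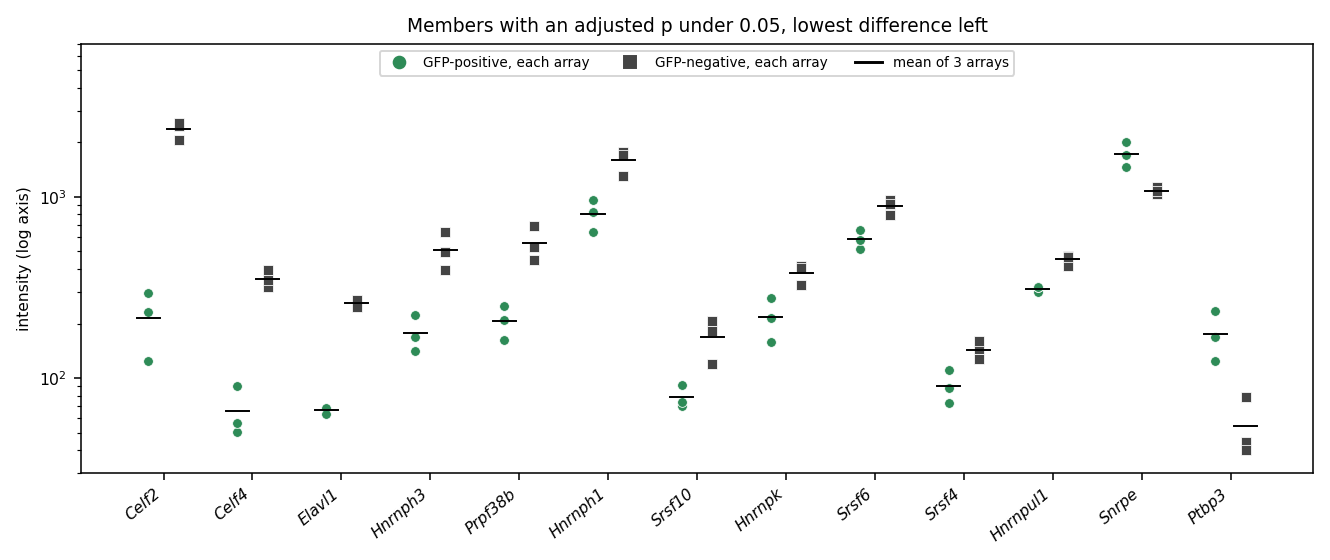
Intensity (log axis) of the 13 members with an adjusted p under 0.05 on each of the 3 GFP-positive (circles, left) and 3 GFP-negative arrays (squares, right), with the mean of each population as a line. Celf2 differs most, at 124 to 293 in GFP-positive cells against 2059 to 2570.0 in GFP-negative cells, and only Snrpe and Ptbp3 of these 13 lie higher in GFP-positive cells.

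None of the 8 SF3 genes passed, beside 21.8% of all genes, with differences from -0.52 to 0.35. Sf3b1, the largest subunit of the complex that grips the branch site, read 388, 269 and 223 in GFP-positive cells against 289.8, 292 and 305 in GFP-negative cells (-0.05, SE 0.19), and the populations overlapped. Its probe sets disagreed, since a dim one on chip B fell by 0.87 on the log2 scale (adjusted p = 0.00172, limma) at 18.2 to 21.8 in GFP-positive cells against 44.8 to 56.0 in GFP-negative cells. Sf3b2, another subunit, was -0.46 (SE 0.31), and without GFP-positive replicate 3 it passed (-0.79, adjusted p = 0.0271, limma), while its other 4 probe sets, all dimmer, lay between -0.05 and 0.18 and none passed.

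Of the 11 Prpf genes 1 fell and none rose, beside 11.9% and 9.83% of all genes. Prpf38b, a relative of a yeast factor needed to activate the spliceosome, read 209.8, 162 and 250.4 in GFP-positive cells against 529, 451 and 695 in GFP-negative cells. Its arrays did not overlap, the difference was -1.36 (SE 0.21, adjusted p = 0.00774, limma) and the call held in all 18 alternatives. The other 3 Prpf38b probe sets, all dimmer, were 0.39, -0.14 and -0.22 and did not pass. None of the 18 alternatives read them. Prpf4b, a kinase of the tri-snRNP, was -0.71 (SE 0.44, adjusted p = 0.387, limma) and Prpf19, the ubiquitin ligase of the complex named after it, was 0.13 (SE 0.25), both with overlapping arrays.

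The Snrp genes were the 1 general family with a positive median, 0.22 over 9 genes. Snrpe, a protein of the Sm ring, read 2021, 1708 and 1469 in GFP-positive cells against 1044, 1132 and 1071 in GFP-negative cells, and every GFP-positive array was higher. A dim Snrpe probe set on chip C did not pass (0.07). On the brightest one the difference was 0.66 (SE 0.13, adjusted p = 0.0169, limma), and it was no longer called under quantile normalization (0.46, adjusted p = 0.115) or without GFP-positive replicate 2 or any single GFP-negative array (adjusted p up to 0.0722). Snrpe had no value in the alternative without probe sets whose suffix marks weaker probe selection or possible matches to several transcripts. Snrpg, another ring protein singled out after its values were seen, read 331, 404 and 176 in GFP-positive cells against 143, 158 and 144 in GFP-negative cells. It did not pass (0.89, SE 0.29, adjusted p = 0.091, limma), although all of its GFP-positive arrays were higher.

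Single GFP-positive arrays split other bright Snrp genes, replicate 3 for Snrpb and Snrpc and replicate 1 for Snrpf. Snrpb, the SmB ring protein, read 1375, 1292 and 4361 in GFP-positive cells against 1434, 1839.9 and 1292 in GFP-negative cells. Snrpc, a protein of the U1 particle, read 492, 507 and 2610.1 in GFP-positive cells against 2393, 2637 and 2325 in GFP-negative cells. Neither passed (0.39, SE 0.48, and -1.47, SE 0.64). Without replicate 3 Snrpc passed at -2.26 (adjusted p = 4.67e-05, limma), yet its other probe sets were 0.27 and 0.22 and did not pass. Snrpf, a further ring protein named after its values were seen, read 1330, 366 and 551 in GFP-positive cells against 473, 462 and 379 in GFP-negative cells and did not pass (0.55, SE 0.43). One Snrp member, Snrp1c-ps2, is annotated as a pseudogene, and its reading cannot be told apart from that of genes with near-identical sequence.

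**Figure D3:**
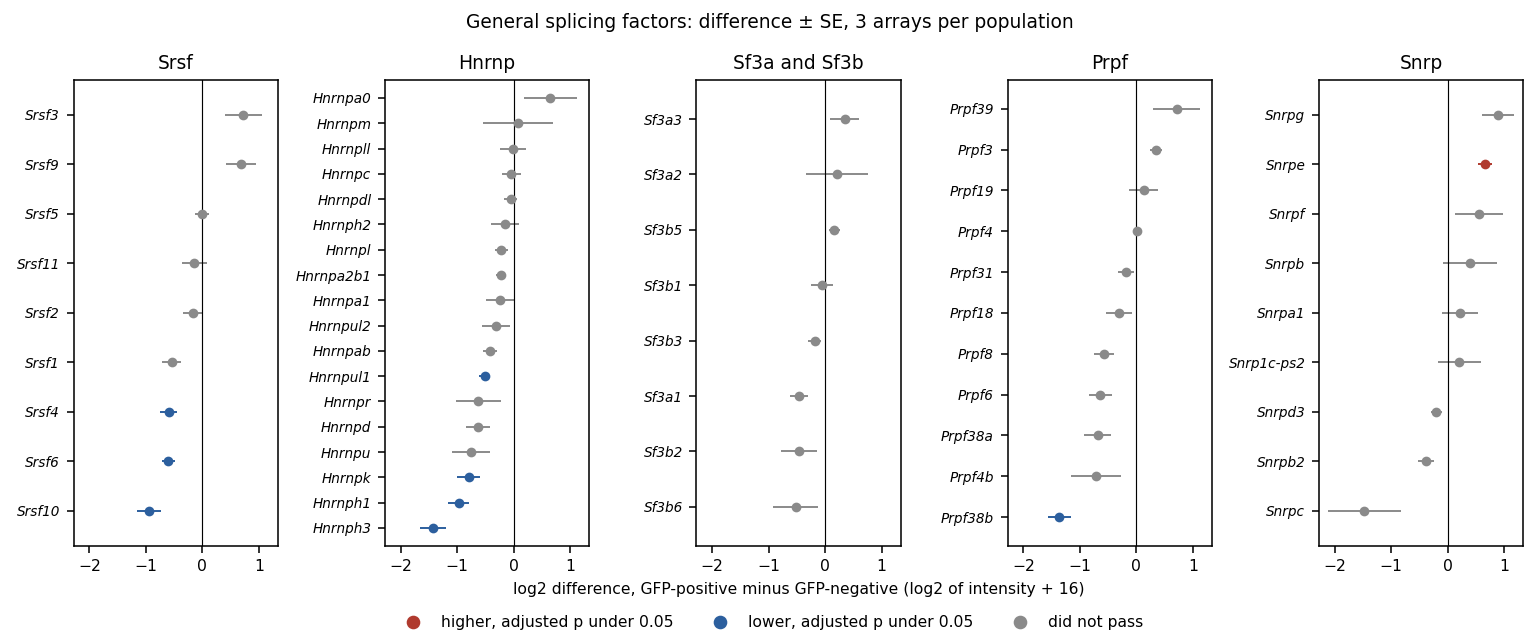
Log2 difference (GFP-positive minus GFP-negative) ± SE of each of the 55 general factors, by family, from 3 arrays per population. The 8 genes that fell are SR proteins, hnRNPs and Prpf38b, and the 1 that rose is Snrpe in the Snrp family. No SF3 gene passed.

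The CELF proteins bind GU-rich RNA and control splicing and decay, and they held the largest differences of all members. Celf2, which is made in brain, heart and T cells among other tissues, read 230.2, 293 and 124 in GFP-positive cells against 2459, 2059 and 2570.0 in GFP-negative cells. The populations were far apart, with a difference of -3.43 (SE 0.29, adjusted p = 0.00152, limma). Of its 5 probe sets 4 fell, with log2 differences of -3.62 to -1.56, on all 3 chips, and 1 dim probe set on chip A did not pass (0.06).

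Celf4, a neuronal CELF protein, read 50.5, 56.3 and 90.1 in GFP-positive cells against 318, 397 and 346 in GFP-negative cells (-2.20, SE 0.19, adjusted p = 0.000429, limma). Its arrays did not overlap, and 3 of its 4 probe sets fell, again on all 3 chips. The calls of Celf2 and Celf4 held in all 18 alternatives. Celf1, the broadly expressed founding member, read 675, 392 and 359 in GFP-positive cells against 738, 679 and 786 in GFP-negative cells and did not pass (-0.66, SE 0.23, adjusted p = 0.0927, limma). Celf1 passed without GFP-positive replicate 1 (-0.94, adjusted p = 0.00437), and its other 5 probe sets lay between -0.16 and 0.20. Celf5, a neuronal relative, was 183 ± 25.8 in GFP-positive cells against 206 ± 59.2 in GFP-negative cells (-0.12, SE 0.22).

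ELAVL (Hu) proteins bind AU-rich RNA and stabilise it. Elavl1 (HuR), the ubiquitous member, read 67.1, 68.2 and 63.4 in GFP-positive cells against 255, 271 and 248 in GFP-negative cells on its brightest probe set, with no overlap (-1.74, SE 0.07, adjusted p = 0.000128, limma). The probe sets of Elavl1 disagreed. A dim one on chip C also fell (-0.98, adjusted p = 0.00675), but the next brightest on chip C was 0.12 and the one on chip A -0.00 (adjusted p = 0.999), and 4 of the 6 did not pass. Which of them reports the gene was not tested.

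The neuronal Hu genes showed no fall on their brightest probe sets. Elavl2 was 43.9 ± 11.3 in GFP-positive cells against 54.5 ± 6.35 in GFP-negative cells (-0.25, SE 0.16), Elavl3 was 117 ± 19.3 against 88.6 ± 11.1 (0.35, SE 0.14, adjusted p = 0.13, limma) and Elavl4 was 30.6 ± 6.78 against 34.0 ± 3.98 (-0.11, SE 0.12). Elavl4 had a pair of dimmer probe sets that fell (-0.79 and -0.43), with intensities of 3.99 to 8.52 in GFP-positive cells against 13.7 to 26.5 in GFP-negative cells. These levels lie below the array medians of 32.5 to 44.6.

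PTB proteins bind pyrimidine-rich RNA and mostly repress exons. Ptbp3, known from blood-forming cells, was the regulator that rose: it read 234, 124 and 169 in GFP-positive cells against 79.0, 44.6 and 40.3 in GFP-negative cells. All GFP-positive arrays were higher, the difference was 1.44 (SE 0.27, adjusted p = 0.0123, limma), and its other probe set, on chip A, gave 1.43 (adjusted p = 0.0169). The call on chip B ended without GFP-negative replicate 2 (adjusted p = 0.054). Ptbp2, the neural PTB protein, was dim at 21.5, 13.9 and 7.28 in GFP-positive cells against 43.7, 27.2 and 34.2 in GFP-negative cells. Its GFP-positive arrays were all lower, but the difference of -0.77 (SE 0.21) just missed the threshold (adjusted p = 0.0511, limma), and it passed in 4 of 17 alternatives.

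RBFOX proteins activate or repress exons by position and are abundant in neurons and muscle. Rbfox1 was 20.8 ± 4.93 in GFP-positive cells against 26.3 ± 5.53 in GFP-negative cells (-0.20, SE 0.14). Rbfox3, whose protein is the neuronal marker NeuN, read 144, 150.0 and 334 in GFP-positive cells against 99.2, 144 and 124 in GFP-negative cells and did not pass (0.62, SE 0.32). Rbfox2, the broad member, read 919.8, 975 and 4559 in GFP-positive cells against 2266, 2664 and 2597 in GFP-negative cells (-0.64, SE 0.62). Without GFP-positive replicate 3 Rbfox2 passed (-1.39, adjusted p = 0.000642, limma), while its other 5 probe sets lay between 0.05 and 0.27 and none passed.

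**Figure D4:**
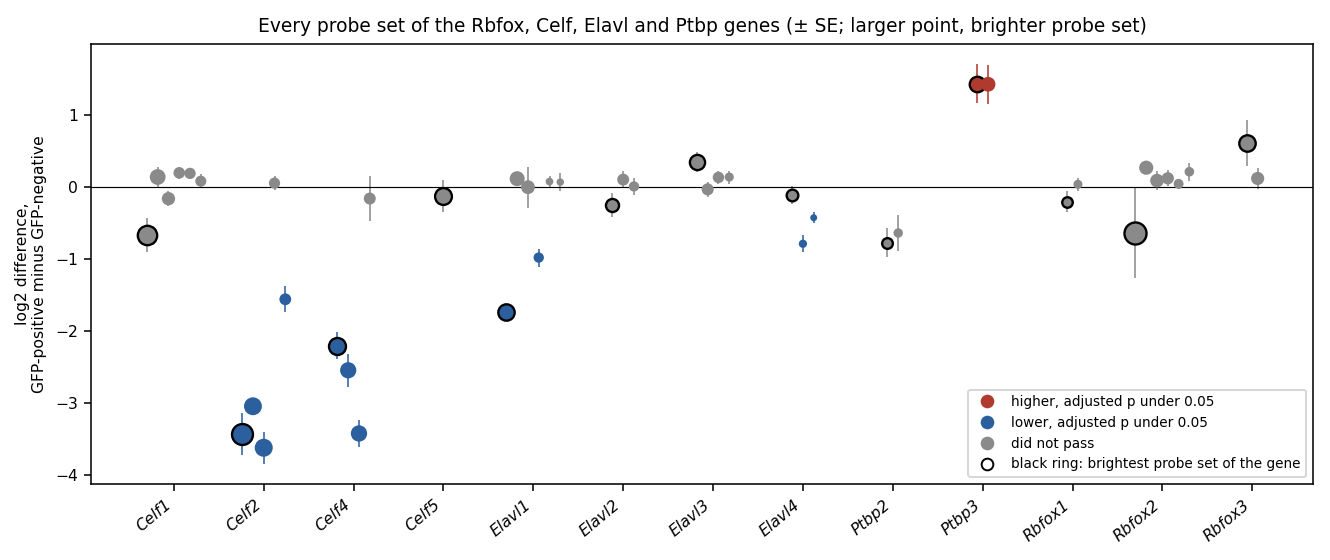
Log2 difference (GFP-positive minus GFP-negative) ± SE of every probe set of the 13 Rbfox, Celf, Elavl and Ptbp genes. Point area grows with intensity, a black ring marks the brightest probe set of a gene, and colours mark an adjusted p under 0.05. Celf2 and Celf4 are low and Ptbp3 high on several probe sets, whereas those of Elavl1 disagree.

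The summed retinal neuron markers were lower on every GFP-positive array, as were Celf2 and Celf4, and the part of cell composition in the falls of these genes was not tested. Of the 13 Rbfox, Celf, Elavl and Ptbp genes 3 fell, 1 rose and the others did not pass. Over all genes 11.9% fell and 9.83% rose. Several neural regulators that did not pass were dim in both populations: Rbfox1, Elavl2, Elavl4 and Ptbp2 averaged 14.2 to 43.9 in GFP-positive and 26.3 to 54.5 in GFP-negative cells.

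Across the 177 probe sets of the members 28 were lower and 3 higher, while 10.1% and 8.1% of all 29131 probe sets with 1 symbol were lower and higher. The 3 higher ones belonged to Ptbp3 and Snrpe. No member had probe sets called in both directions. Of the 77 probe sets with a mean intensity under 50, 6 were called, against 25 of the 100 brighter ones. Arrays of the populations did not overlap for 23 members with GFP-positive below and 5 with GFP-positive above, beside 19.2% and 22.2% of all genes.

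GFP-positive replicate 3 differed by more than 2-fold from the mean of the other GFP-positive arrays for 13 members, 8 brighter and 5 dimmer on it. Among all 15964 genes 862 were brighter and 281 dimmer on it by that measure. None of the 13 passed the threshold, and such a spread itself raises the SE of a gene. The largest were Snrpc (2.35 on the log2 scale), Rbfox2 (2.25) and Hnrnpm (-2.23). Of these 13 probe sets 8 carry a suffix that marks weaker probe selection or possible matches to several transcripts, against 16 of all 68 chosen probe sets.

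**Figure D5:**
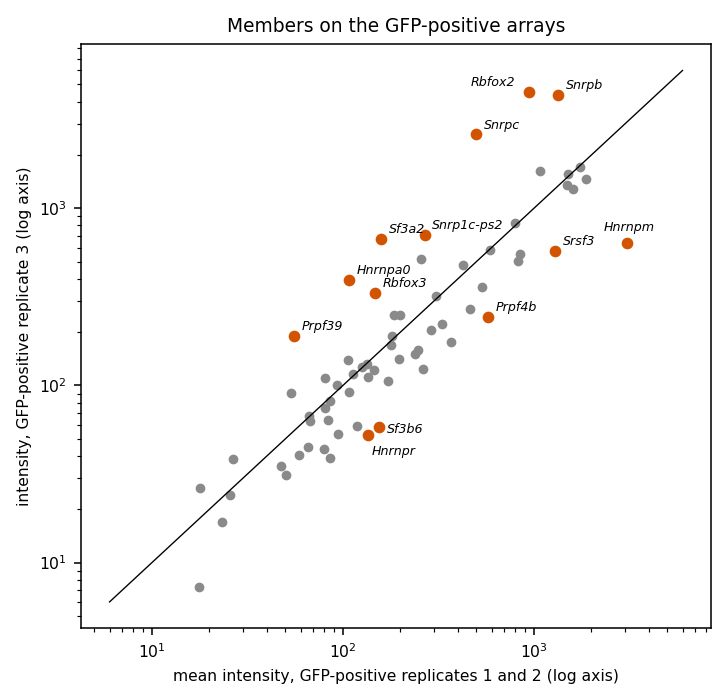
Intensity on GFP-positive replicate 3 against the mean of GFP-positive replicates 1 and 2 for the 68 members (log axes), with the line of equality. The 13 named members in orange differ by more than 2-fold, and Snrpc, Rbfox2 and Sf3a2 lie farthest above the line.

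Splicing genes outside the named families were taken from a fixed list of 83, of which 74 were measured. Of these 11 were lower and 2 higher, again beside 11.9% and 9.83% of all genes, with a median of -0.04. The count that rose was 9 without GFP-positive replicate 3, beside 14.9% of all genes in that fit. Khdrbs3 (SLM2), a neural STAR protein, read 54.4, 73.7 and 43.4 in GFP-positive cells against 1588, 1336 and 1484 in GFP-negative cells. This was the largest fall in the list (-4.36, SE 0.16, adjusted p = 0.000113, limma), without overlap, although the other Khdrbs3 probe set, on chip B, was 0.16 and did not pass.

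Rbmx, Srpk2 and Nono had the next largest falls in that list. Rbmx, an X-linked hnRNP-like protein, was 149.8 ± 62.4 in GFP-positive cells against 437 ± 113 in GFP-negative cells (-1.49, SE 0.32, adjusted p = 0.0261, limma), a call lost in 6 of 18 alternatives. Only 1 of its 8 probe sets fell, and the other 7 did not pass. Srpk2, a kinase of SR proteins, was 111 ± 11.3 in GFP-positive cells against 259 ± 61.9 in GFP-negative cells (-1.10, SE 0.17, adjusted p = 0.00515). Of 3 Srpk2 probe sets 2 fell, and the one on chip A did not pass (0.10). Nono, a paraspeckle protein, was 306 ± 35.2 against 654 ± 127 (-1.04, SE 0.17, adjusted p = 0.00911), with 1 of its 3 probe sets lower.

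The 2 that rose were Mbnl3, a muscleblind protein that regulates alternative exons, and Nova2. Mbnl3 read 154, 114 and 97.3 in GFP-positive cells against 14.0, 16.4 and 23.4 in GFP-negative cells, a clear separation (2.01, SE 0.18, adjusted p = 0.000472, limma) that held in all 18 alternatives. Nova2, known from neurons and also from endothelium, read 239.5, 251 and 217 in GFP-positive cells against 95.9, 141 and 165 in GFP-negative cells (0.77, SE 0.18, adjusted p = 0.0274). Its arrays did not overlap, but the call was lost in 6 of 18 alternatives. The other Nova2 probe set did not pass. The neural regulators Nova1 (0.06) and Srrm3 (-0.07) did not pass, and Nova1 was near background at 5.30 to 9.25 on all arrays. Srrm3 read 29.0, 31.3 and 111.5 in GFP-positive cells against 54.7, 57.7 and 44.5 in GFP-negative cells. Without GFP-positive replicate 3 Srrm3 passed as lower (-0.56, adjusted p = 0.01375, limma).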

How the data were processed

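RNA of sorted cells was amplified, and biotin-labelled cRNA was put on 1-colour Affymetrix MGU74v2 chips, per the labels' protocols. Each deposited value is the linear intensity of 1 probe set. The sources used here do not give the authors' summary, background correction or normalization, which could change every difference. Medians of the arrays were 43.3 to 44.5, 40.7 to 44.6 and 32.5 to 34.4 on chips A, B and C, so the values were kept as scaled. Genes were named through the platform annotation, and 0 symbols changed after a match by Entrez identifier to RefSeq.

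Each chip was fitted alone on log2 of intensity plus 16 with limma 3.58.1 (lmFit, eBayes, two-sided) in R 4.3.3 over all its probe sets, adjusted chip by chip (Benjamini-Hochberg) at a threshold of 0.05. This scale understates differences of dim probe sets. A gene was measured by the probe set with 1 symbol and the highest mean level on any chip. The members and lists were chosen with earlier results of these data known. Named genes were all regulators, up to 4 called genes a direction in each family, the brightest called one and the 2 brightest that did not pass, and 6 neural and up to 4 called genes a direction among the other splicing genes. The fit was tested on simulated data. The number of arrays limits the precision. Promoters came from RefSeq (GRCm38.p6), and figures were drawn with matplotlib 3.10.9. The alternatives are given in the closing section.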

Additional observations from a re-analysis of the deposited data

How the results depend on the processing

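Of 712 values of named genes under the alternatives, 614 kept their direction and their side of the threshold. The call was lost for 62, gained for 11, and 25 changed sign. Some of the 614 could not have changed. Genes that did not pass stay so at a stricter threshold or with a 2-fold minimum. Genes held by a single chip keep their probe set when read on the first chip. Members numbered 2 higher and 11 lower in the main fit. When single arrays were left out, the higher count ranged from 0 to 6 and the lower from 6 to 15, with 6 and 15 without GFP-positive replicate 3, 6 lower without GFP-negative replicate 1, 7 lower without GFP-negative replicate 3 and 0 higher without GFP-negative replicate 2. The ranges were 0 to 5 higher and 3 to 11 lower for general factors, 1 to 2 lower for neural regulators, 0 to 1 higher for broad relatives, and 1 to 9 higher and 6 to 12 lower for the other splicing genes. Fits to fewer arrays also lose precision. Under quantile normalization 1 member and 0 general factors were higher. With a pseudocount of 64, 2 general factors were higher. With limma-trend 4 general factors and 2 neural regulators were lower. On the first chip that holds a gene 1 broad relative was lower, because Elavl1 is then read on chip A. Without probe sets whose suffix marks weaker selection or several matches, 1 member and 0 general factors were higher and 2 neural regulators lower. At an adjusted p under 0.01, 0 members were higher and 6 lower, with 0 and 3 general factors, 0 broad relatives higher, and 1 and 5 other splicing genes. With a minimum of 2-fold, 1 member was higher and 5 lower, with 0 and 2 general factors, and 1 and 4 other splicing genes. Over brighter probe sets only, the median of the 4 neural regulators left was 0.11. With every Rbfox, Celf, Elavl and Ptbp gene counted as neural, 1 was higher and 3 lower. The second brightest probe set of each gene was an alternative chosen after seeing the data. It exists only for genes with several probe sets, 48 members and 7645 of all genes. On it 1 member and 0 general factors were higher, and 2 neural regulators and 1 broad relative lower. Of the other splicing genes 1 was higher and 5 lower, beside 7.02% and 8.95% of those 7645 genes. At an adjusted p under 0.01, 778 of all genes were higher and 1042 lower, and with a 2-fold minimum 742 and 1013. Without GFP-positive replicate 2, 1041 genes were higher, without replicate 3, 2382, and without GFP-negative replicates 1, 2 and 3, 944, 949 and 1026. The replicate block gave 2 lower neural regulators, with 1166 genes higher and 1562 lower instead of 1569 and 1907. The labels do not state that the replicate numbers mark shared animals, so the numbers were not taken to pair the arrays. Deviations of same-numbered samples correlated from -0.37 to 0.29, and those of differently numbered ones from -0.41 to 0.44.

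Signs changed mostly for genes that did not pass. On the first chip that holds the gene the values were -0.20 for Hnrnpm, 0.22 for Snrpc, 0.10 for Srpk2, 0.16 for Khdrbs3, 0.0095 for Elavl2 and -0.031 for Elavl3. Without the suffixed probe sets they were -0.20 for Hnrnpm, 0.18 for Sf3b2, 0.22 for Snrpc and 0.27 for Rbfox2. With single arrays left out, Hnrnpm ranged from -0.33 to 0.81, Prpf19 from -0.068 to 0.37, Srsf2 from -0.32 to 0.016, Srrm3 from -0.56 to 0.19, Sf3b1 from -0.26 to 0.12, Snrpb from -0.17 to 0.70, Srsf5 from -0.083 to 0.10, Celf5 from -0.37 to 0.026 and Nova1 from -0.014 to 0.10. The cause of these changes was not tested. Dim probe sets such as those of Ptbp2, Rbfox1 and Elavl4 lie near background, so a difference in their transcripts may not be detectable on these arrays.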
